A study of Mus musculus with 7 samples.

Results

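The loci of *Nodal*, *Gdf3*, *Tdgf1*, *Acvr2b*, *Lefty1* and *Lefty2* were followed by ATAC-seq through the reprogramming of mouse embryonic fibroblasts (MEFs). The members were 6 of 21911 protein-coding genes, named by their place in the Nodal pathway, and each locus was the gene body with 20 kb on either side (mm10, GENCODE M21). All peaks called in these windows were taken, library by library, and touching or overlapping peaks of the 7 libraries were joined into 36 of the 104248 merged regions of the genome. ATAC-seq cuts open chromatin with a transposase, so a called peak marks a stretch where cuts were denser than around it, and a library "had" a region where at least 1 of its peaks lay in it. A region is called open in a library with such a peak and closed in one without, which says only that no peak was called there at a depth that is unknown.

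The 7 libraries were MEFs before induction (day 0), MEFs on days 1, 2, 3, 6 and 9 of doxycycline at 2 ug/ml, and embryonic stem cells (ESCs) of the Bruce-4 line. The MEFs carried 2 alleles from crossed strains, Col1a1tm1(tetO-Pou5f1,-Klf4,-Sox2,-Myc)Hoch on B6;129S4, a drug-inducible cassette of the 4 factors (OKSM), and Gt(ROSA)26Sortm1(rtTA*M2)Jae on B6.Cg, the transactivator that doxycycline switches on, so the day 0 cells held the same transgenes without the drug. The labels give this genotype for the ESC library as well, and neither the ESCs nor the day 0 MEFs received doxycycline. Each time-point was 1 library of a whole culture, in which few cells may go on to reprogram, so no difference below has a replicate error or a p-value, and fewer open cells cannot be told apart from less opening per cell.

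Nodal is a ligand of the TGF-beta superfamily that patterns the early embryo and is made by pluripotent cells. It binds type I and type II activin receptors, among them Acvr2b, and needs an EGF-CFC co-receptor such as Cripto, the product of *Tdgf1*, to signal through Smad2 and Smad3 and their partner Foxh1. Gdf3 is a related ligand that uses the same co-receptor, while Lefty1 and Lefty2 are secreted inhibitors that block Nodal and its co-receptor and are themselves induced by the pathway.

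The sequences below are the stretches on which the account of the loci turns, read 5′ to 3′ on the strand of the named gene from the mm10 assembly. Each is the part common to all peaks of the region, or its middle 300 bases where that part was longer, except for *Acvr2b*, where it ends at the last base before the gene's start. Capitals mark matches, on either strand, to the motifs described further on, and none of the printed bases lies in an annotated exon.
*Nodal* upstream region of ESCs, chr10:61415945-61416244, + strand: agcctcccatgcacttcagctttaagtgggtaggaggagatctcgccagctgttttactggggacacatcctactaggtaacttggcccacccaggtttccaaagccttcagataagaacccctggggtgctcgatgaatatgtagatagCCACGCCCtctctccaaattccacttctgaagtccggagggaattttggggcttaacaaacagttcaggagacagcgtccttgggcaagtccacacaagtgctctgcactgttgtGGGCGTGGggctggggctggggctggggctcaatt
*Nodal* upstream region of day 9, chr10:61416721-61417020, + strand: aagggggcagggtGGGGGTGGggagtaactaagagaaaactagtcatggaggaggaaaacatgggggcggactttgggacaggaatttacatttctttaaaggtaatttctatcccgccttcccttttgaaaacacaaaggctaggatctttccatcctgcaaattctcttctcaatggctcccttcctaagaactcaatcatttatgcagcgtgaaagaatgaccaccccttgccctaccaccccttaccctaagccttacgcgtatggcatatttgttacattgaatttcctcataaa
*Gdf3* intron region of days 1 to 9 and ESCs, chr6:122608337-122608545, - strand: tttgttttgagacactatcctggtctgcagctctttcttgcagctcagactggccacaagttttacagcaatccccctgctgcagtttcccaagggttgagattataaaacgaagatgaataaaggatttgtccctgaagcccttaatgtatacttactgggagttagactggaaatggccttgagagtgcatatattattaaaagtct
*Acvr2b* start region of every library, chr9:119401862-119402117, + strand: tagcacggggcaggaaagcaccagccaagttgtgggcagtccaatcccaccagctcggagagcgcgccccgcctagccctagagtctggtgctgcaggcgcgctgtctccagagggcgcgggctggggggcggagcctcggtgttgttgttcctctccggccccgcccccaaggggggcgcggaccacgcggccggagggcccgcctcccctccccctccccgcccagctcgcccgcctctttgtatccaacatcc
*Lefty1* upstream region of days 1 to 9, chr1:180933947-180934176, + strand: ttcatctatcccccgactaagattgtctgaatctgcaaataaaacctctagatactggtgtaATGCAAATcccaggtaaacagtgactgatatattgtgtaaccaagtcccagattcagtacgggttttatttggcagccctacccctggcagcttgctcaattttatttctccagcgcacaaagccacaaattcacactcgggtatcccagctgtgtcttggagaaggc
*Lefty2* upstream region of every library, chr1:180888652-180888951, + strand: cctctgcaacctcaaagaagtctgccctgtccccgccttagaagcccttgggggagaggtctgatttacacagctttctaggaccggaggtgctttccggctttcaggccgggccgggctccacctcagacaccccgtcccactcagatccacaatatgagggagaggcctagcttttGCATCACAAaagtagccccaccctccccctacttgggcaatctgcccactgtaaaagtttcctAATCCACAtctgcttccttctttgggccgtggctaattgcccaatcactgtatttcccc

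Every one of the 6 loci had at least 1 peak in every library. Among all protein-coding genes, a peak within 20 kb of the body was present for 80.4%, 77.2%, 73.6%, 78.4%, 77.8% and 74.2% on days 0, 1, 2, 3, 6 and 9 and for 73.0% in ESCs. A peak somewhere near the gene was thus common, and the loci differed in which stretches were open. The 6 loci together held 25, 19, 13, 19, 21 and 15 peaks on days 0, 1, 2, 3, 6 and 9, and 10 peaks in ESCs. The whole peak lists were longest on day 0 (61241 peaks) and shortest in ESCs (27074), as at the loci, with 33174 on day 2 and 33007 on day 9. When the 27023 widest peaks of each library were compared instead, the loci held 8 peaks on day 0 and 10 in ESCs, so the order of these libraries turned.

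**Figure D1:**
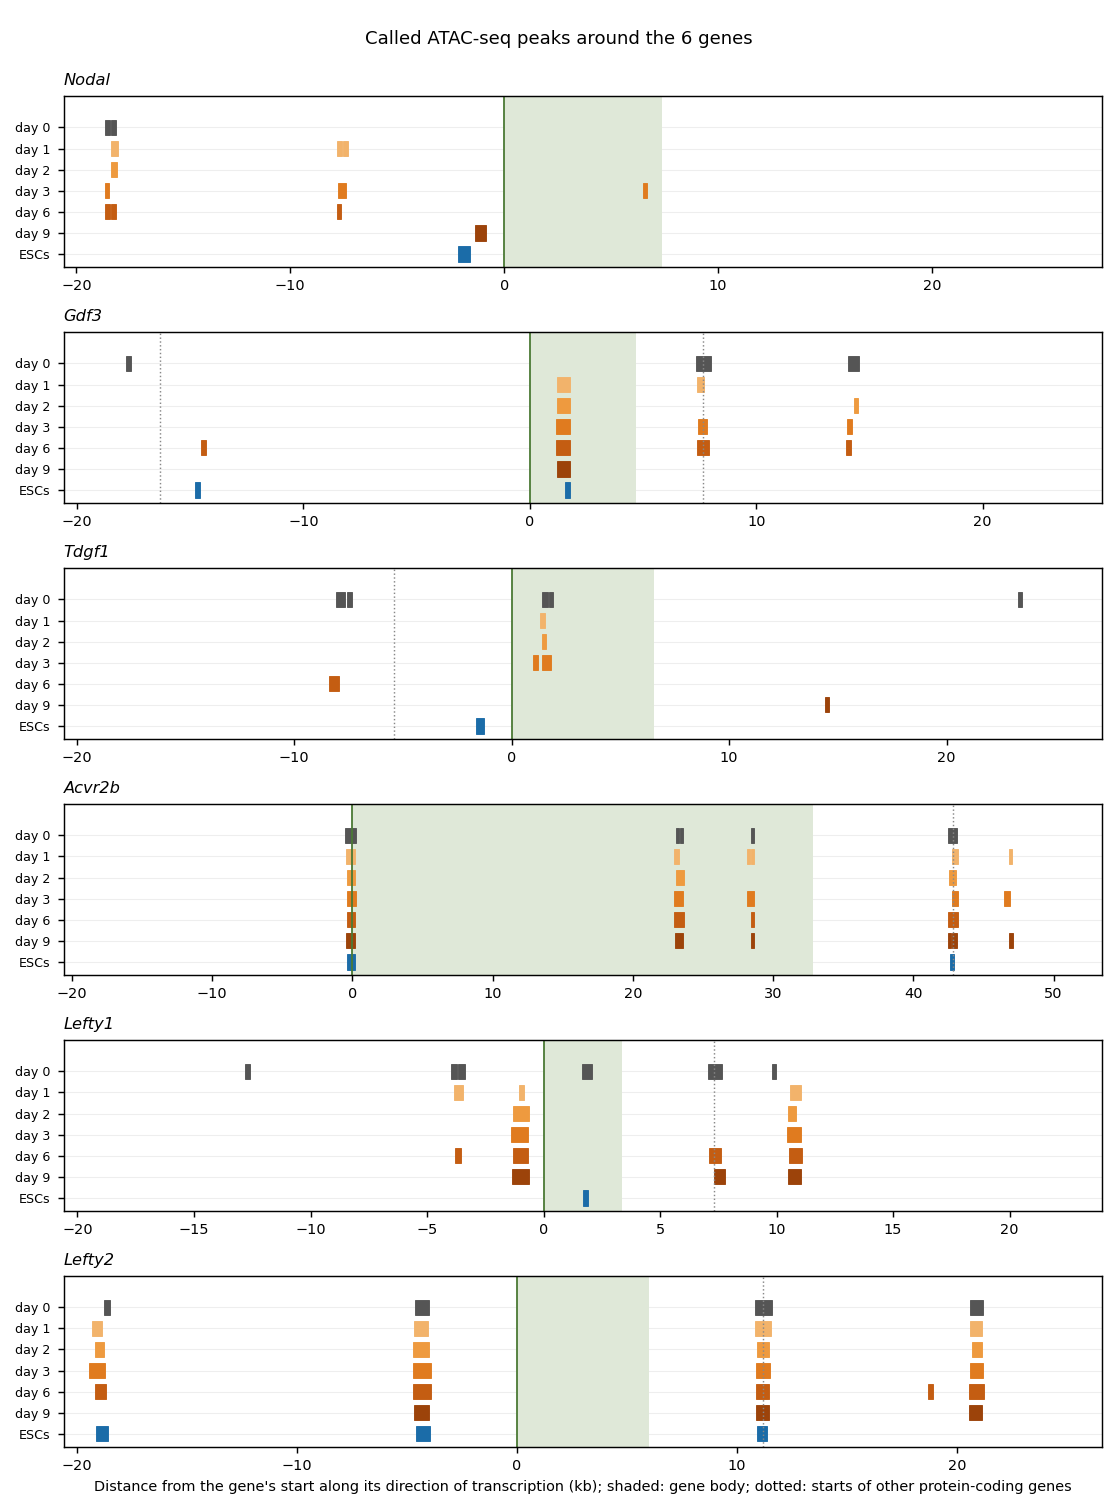
Called peaks (bars) of the 7 libraries (rows) around each gene, by distance from its start in kb along the direction of transcription, with the gene body shaded and starts of other protein-coding genes dotted. *Acvr2b* had a peak over its start in all 7 libraries, while the peak nearest to the *Nodal* start lay 18156 bp upstream on day 0 and 1601 bp upstream in ESCs.

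Counting from the outer annotated end of each gene, *Acvr2b* alone had a peak at its start in every library, and in ESCs the open stretch nearest to 4 of the other starts lay 1283 to 1706 bp away. A peak within 1000 bp of the start was present for 1 of the 6 genes on day 0, 2 on each of days 1, 2, 3 and 6, 3 on day 9 and 1 in ESCs, and the share of all protein-coding genes was 54.5%, 50.7%, 46.9%, 51.4%, 52.6%, 48.8% and 46.0% in the same order. The genes were *Acvr2b* in all 7 libraries, *Lefty1* in the 5 libraries of doxycycline days and *Nodal* on day 9. *Gdf3*, *Tdgf1* and *Lefty2* had no peak at the start in any library, as was the case for 39.8% of all genes, and 38.5% of all genes had one in every library. Counting any annotated transcript start of a gene gave 3, 4, 4, 4, 3, 4 and 2 of the 6 genes, against 59.7%, 55.8%, 51.6%, 56.4%, 57.4%, 53.4% and 50.3% of all genes, so *Gdf3*, *Tdgf1* and *Lefty1* gained libraries through alternative starts. By this count *Lefty1*, like *Acvr2b*, had a start peak in all 7 libraries, on day 0 and in ESCs through the region inside its gene. That region had the lowest share of unique sequence among the regions of the 6 loci. Its ESC peak was 207 bp wide, near the 200 bp minimum of the peak lists.

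In ESCs the nearest peak lay 1601 bp upstream of the start of *Nodal*, 1542 bp downstream of that of *Gdf3*, 1283 bp upstream of that of *Tdgf1* and 1706 bp downstream of that of *Lefty1*. These 4 genes thus had an ESC peak within 2500 bp of the start and none within 1000 bp, a placement seen for 2.88% of all protein-coding genes in ESCs. The limits of 1000 and 2500 bp were set with these distances in view, so the count of 4 is a description. On day 0, 2 of the 6 genes (*Tdgf1* and *Lefty1*) had this placement, against 3.99% of all genes. *Gdf3* and *Tdgf1* had it on days 1, 2 and 3, against 3.73%, 3.24% and 3.66%, and *Gdf3* alone on days 6 and 9, against 3.53% and 3.01%. The number in ESCs was 2 among peaks at least 300 bp wide, since the ESC peaks of *Gdf3* (228 bp) and *Lefty1* (207 bp) were narrow, and 3 when any transcript start was counted.

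**Figure D2:**
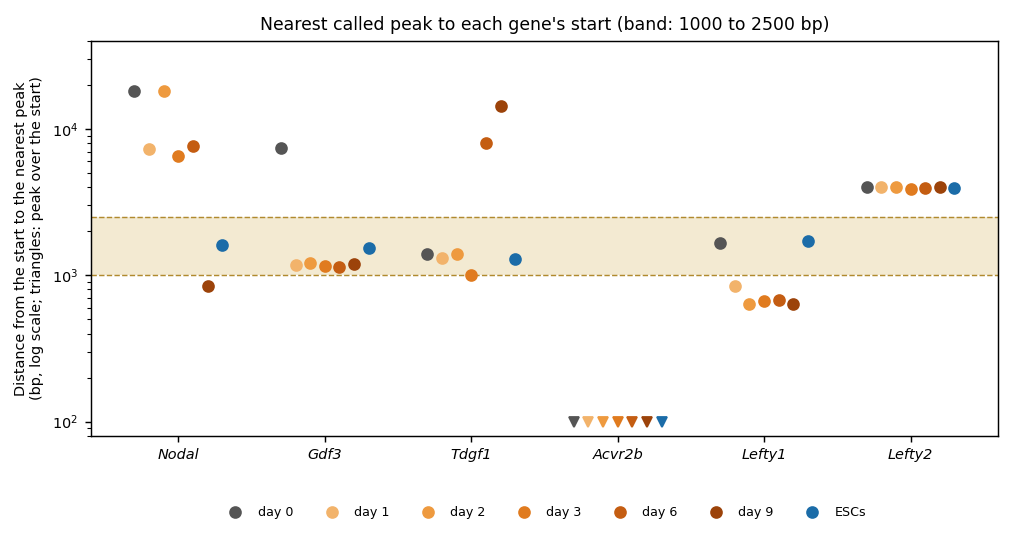
Distance from each gene's start to the nearest called peak (y axis, bp, log scale) in the 7 libraries (colours), with triangles at the foot of the plot for a peak over the start and the band spanning 1000 to 2500 bp. The ESC points of *Nodal*, *Gdf3*, *Tdgf1* and *Lefty1* lie in the band at 1283 to 1706 bp, and those of *Lefty2* stay between 3902 and 4031 bp in all 7 libraries.

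*Nodal* (ENSMUSG00000037171.6, chromosome 10, 61417972 to 61425338, + strand), the ligand, had different open stretches in MEFs, on day 9 and in ESCs. From day 0 to ESCs its locus held 2, 3, 1, 3, 3, 1 and 1 peaks, covering 445, 777, 241, 808, 644, 511 and 553 bp. No library shared a region of its locus with ESCs. The ESC peak covered 553 bp from 2153 to 1601 bp upstream of the start, between genes, and no other library had a peak there. The day 9 peak covered 511 bp from 1356 to 846 bp upstream, next to the ESC peak but not touching it, and it was likewise found in that library alone. The split between them rests on how peaks were joined, since merging within 300 bp puts both peaks in a single region of day 9 and ESCs.

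The other 4 regions of the *Nodal* locus were open in MEFs or during induction and not in ESCs or on day 9. A pair of narrow regions began 18657 and 18382 bp upstream. The first was present on days 0, 3 and 6 with peaks of 218, 201 and 203 bp, and the second on days 0, 1, 2 and 6. A region from 7825 to 7288 bp upstream was present on days 1, 3 and 6, and the last was a 200 bp peak of day 3 in a coding exon. Most of these peaks were close to the 200 bp minimum of the peak lists, and among peaks at least 300 bp wide only the ESC and day 9 regions and the day 3 peak of the region 7825 to 7288 bp upstream were left. Reads had been trimmed to 50 bases, and every 50-base word of the 6 *Nodal* regions occurs once in the mm10 genome.

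*Gdf3* (ENSMUSG00000030117.5, chromosome 6, 122605403 to 122610087, - strand), the related ligand, had a region inside its intron that was closed on day 0. The region was open on every doxycycline day and in ESCs. It ran from 122608316 to 122608955, 1132 to 1771 bp downstream of the start, and overlapped no day 0 peak. The widths of its peaks were 572, 565, 607, 638 and 574 bp on days 1, 2, 3, 6 and 9, and 228 bp in ESCs. The doxycycline peaks were thus alike in width and the ESC peak was the narrowest, falling below 300 bp. Of all merged regions 0.753% were open in every library but day 0, and 3.62% of protein-coding genes had such a region within 20 kb. The pattern was taken from the intron region itself, so these shares only describe how common it was. Among the 36 regions of the 6 loci it was the only one that joined the doxycycline days with ESCs without a day 0 peak. When regions within 300 bp were merged there were 3 such regions. The ESC peaks upstream of *Nodal* and near *Dppa3* then joined neighbouring peaks of day 9 and day 6.

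The other 5 regions within 20 kb of *Gdf3* lay nearer to the start of another gene. Regions in an intron and over the start of *Apobec1*, which encodes an mRNA-editing deaminase, were present on day 0 and some doxycycline days and absent on day 9 and in ESCs. The region over the *Apobec1* start had peaks of 659 bp on day 0 and none in ESCs. On the other side, a 227 bp peak of ESCs alone lay 1509 bp from the start of *Dppa3*, a gene of the germline and preimplantation embryo. It holds the octamer ATGCAAAT, described further on, near one end. Day 6 alone had a 245 bp peak beside it, not touching it, and day 0 alone a 200 bp peak in an intron of *Dppa3*. The locus in all held 3, 2, 2, 3, 4, 1 and 2 peaks from day 0 to ESCs.

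*Tdgf1* (ENSMUSG00000032494.12, chromosome 9, 110939603 to 110946158, - strand), which encodes the co-receptor Cripto, had its ESC peak upstream of the start. Its nearest peak lay downstream on days 0, 1, 2, 3 and 9, and 7944 bp upstream on day 6. The locus held 5 peaks on day 0, 2 on day 3 and 1 in each other library, covering 1273, 200, 200, 635, 451, 200 and 355 bp from day 0 to ESCs. The ESC peak covered 355 bp from 1637 to 1283 bp upstream of the start, between genes, and was the only peak of that library at the locus. No other library had a peak in it.

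A region 1320 to 1912 bp downstream of the *Tdgf1* start, over a coding exon, was present from day 0 to day 3 and absent on days 6 and 9 and in ESCs. It lay 33 bp from the start of a shorter annotated transcript of *Tdgf1*. Its peaks on days 1 and 2 were 200 bp wide, the minimum, and only its day 3 peak reached 300 bp, so its absence after day 3 is set against narrow peaks. The remaining regions were 200 bp peaks of day 0, day 3 or day 9 alone, a 227 bp peak of day 0, and a 715 bp region of days 0 and 6 in *Lrrc2*. With 4 of 7 regions seen in a single narrow peak of at most 227 bp, this locus had the least covered length of the 6 on all 5 doxycycline days.

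*Acvr2b* (ENSMUSG00000061393.14, chromosome 9, 119402118 to 119434995, + strand), the type II receptor, had a peak over the outer annotated end of the gene in every library. The peak over its start was 782, 642, 561, 644, 633 and 675 bp wide on days 0, 1, 2, 3, 6 and 9 and 567 bp wide in ESCs. The region was GC-rich, with 74.5% G or C in its central 200 bp, more than in 97.5% of all merged regions. The printed stretch before the start held none of the motifs searched.

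Inside the 32878 bp *Acvr2b* gene, an intron region 22911 bp downstream of the start was present in the 6 MEF-derived libraries and absent in ESCs, and a region 28138 bp downstream was present in 5 of them, all but day 2. The first of these had no day 0 peak of at least 300 bp, and the second kept only its day 3 peak under that limit. Over the start of *Exog*, which encodes a mitochondrial nuclease, all 7 libraries had a peak. The locus held 5, 6, 3, 5, 4, 6 and 2 peaks from day 0 to ESCs, and both ESC peaks were at gene starts.

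*Lefty1* (ENSMUSG00000038793.8, chromosome 1, 180935022 to 180938400, + strand), the first inhibitor, had 2 regions that were open on all 5 doxycycline days and closed on day 0 and in ESCs. The upstream one, 1401 to 634 bp before the start, holds the 590 bp element that the study cloned, and its peaks measured 230, 676, 732, 623 and 725 bp on days 1, 2, 3, 6 and 9. The downstream one, 10460 to 11078 bp after the start, lay within *Tmem63a*, a gene for an ion channel protein, 3138 bp from its start. Its peaks measured 480, 344, 607, 532 and 549 bp on the same days. So the downstream region reached 300 bp on every doxycycline day, while the upstream one did not on day 1. Per the paper, reprogramming factors stay bound to the cloned element from early induction through to ESCs. The paper also places the element within a proximal enhancer that drives its gene in ESCs. Here, closed in ESCs means only that no peak was called over the upstream region in the shortest of the peak lists. Whether the element is inactive in ESCs was not tested.

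Regions of this pattern made up 2.84% of all merged regions. At least 1 was found within 20 kb of 10.6% of protein-coding genes, and at least 2 within 20 kb of 1.47%. The pattern was set with the 2 *Lefty1* regions in view, so these shares only describe how common it was. None of the other 5 loci had a region of this pattern, although the *Gdf3* intron region was open on the same 5 days and in ESCs too. Among peaks at least 300 bp wide, the *Gdf3* intron region had the pattern and the upstream *Lefty1* region did not.

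The remaining 5 *Lefty1* regions were open on day 0. A region 3953 to 3371 bp upstream was also present on days 1 and 6, and one over the start of *Tmem63a* was also present on days 6 and 9. The region in the *Lefty1* gene itself was shared by day 0 (433 bp) and ESCs (207 bp) with no peak on any doxycycline day. It also had the lowest share of unique sequence among the 36 regions. Of its 50-base words 69.0% occur once in the genome, 25.0% are shared with *Lefty2*, and 1 word of a simple repeat occurs 205369 times. In the ESC peak 80.4% of the words occur once. In covered bases the locus held 1967, 1130, 1020, 1339, 1903, 1758 and 207 bp from day 0 to ESCs, so ESCs had the least.

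*Lefty2* (ENSMUSG00000066652.5, chromosome 1, 180893108 to 180899103, + strand), the second inhibitor, lies 41914 bp from *Lefty1* by their starts and had its upstream region open in all 7 libraries. That region ran from 4739 to 3902 bp before the start, between genes. It was covered by peaks of 621, 660, 737, 818, 805 and 685 bp on days 0, 1, 2, 3, 6 and 9 and of 641 bp in ESCs. Days 3 and 6 had the widest peaks and day 0 the narrowest, with ESCs between them. In the 20 kb on either side of the start, peaks covered 1671 bp in ESCs at *Lefty2*, more than at 96.7% of protein-coding genes, and 207 bp at *Lefty1*, more than at 36.8%.

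A second *Lefty2* region, 19460 to 18473 bp upstream, was present in ESCs and on every day but day 9, and only its day 0 peak was under 300 bp. A region 20545 to 21237 bp downstream was open in the 6 MEF-derived libraries and not in ESCs, and a 220 bp peak was seen on day 6 alone. The locus held 4, 4, 4, 4, 5, 3 and 3 peaks from day 0 to ESCs, at least 3 in every library. No region lay in the overlap of the *Lefty1* and *Lefty2* windows. Of the 50-base words of the *Lefty1* gene body 9.94% occur in that of *Lefty2*, and of those of *Lefty2* 5.57% occur in *Lefty1*, whereas all words within 1000 bp of either start occur once in the genome.

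**Figure D3:**
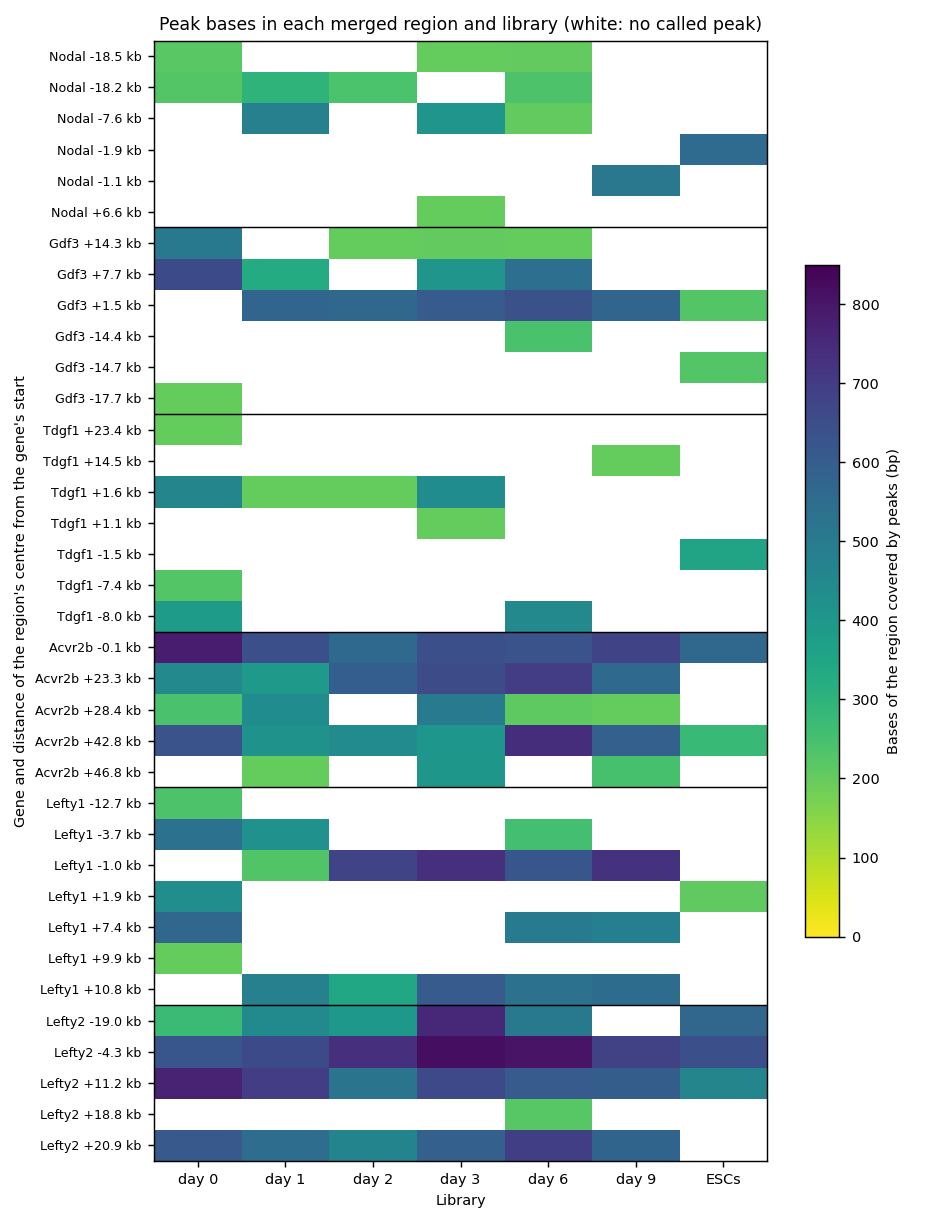
Bases covered by peaks (colour, bp) in each of the 36 merged regions (rows, named by gene and by the distance of the region's centre from the gene's start) and each library (columns), with white for no called peak. Rows of *Acvr2b* and *Lefty2* are filled from day 0 to ESCs in 4 cases, and a pair of *Lefty1* rows, one upstream and one downstream of the gene, is filled on the 5 doxycycline days alone.

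In windows of equal length, 20 kb on either side of the start, each of the inhibitors had more covered bases than any other member in all libraries but ESCs, where this held for *Lefty2* alone. These bases include neighbouring genes. Within 20 kb of the gene bodies, 4 of 7 regions at *Lefty1* and 2 of 5 at *Lefty2* were nearest to their own gene's start. On day 9, *Lefty1* peaks of 484 and 549 bp lay at the start of *Tmem63a* or within that gene. *Lefty2* covered 1656, 1801, 1655, 2235, 2138, 1283 and 1671 bp from day 0 to ESCs. This was above 79.7% of protein-coding genes on day 0 and above 84.1% to 96.7% in the other libraries. *Lefty1* was above 86.8% of genes on day 0, 93.6% on day 9 and 36.8% in ESCs. *Gdf3* was above 85.0% on day 6, with 1622 bp, and 49.0% on day 9 and in ESCs. The values of *Acvr2b* stayed above 44.5% to 57.3% of genes and those of *Nodal* above 30.9% to 56.2%. *Tdgf1* was under the median of all genes in every library but day 0, when it covered 1073 bp against a median of 850 bp.

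**Figure D4:**
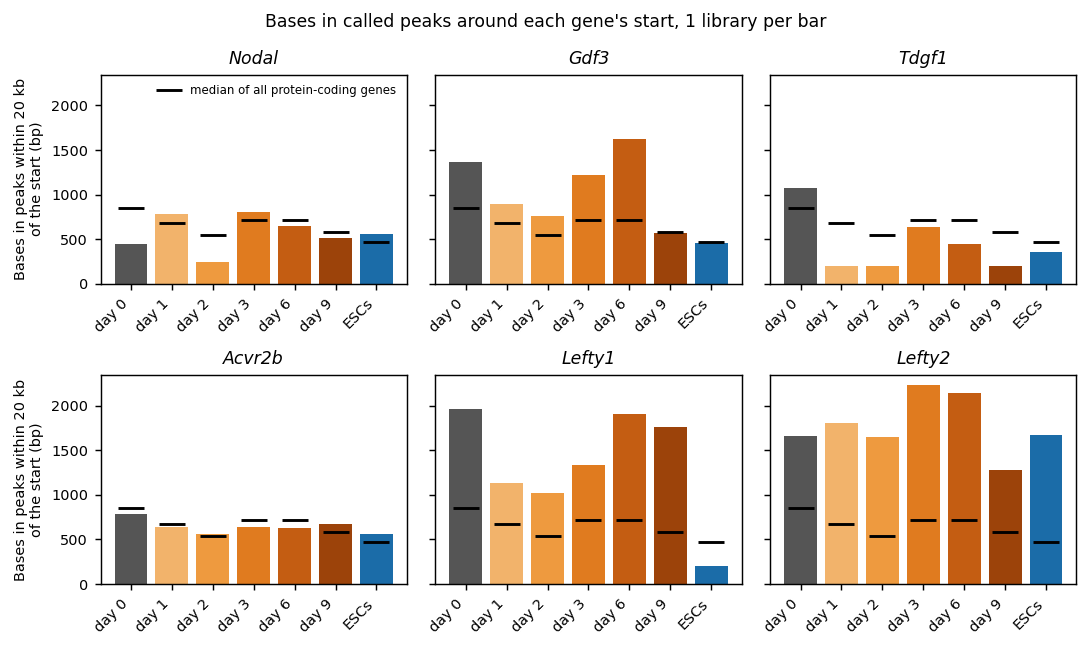
Bases in called peaks within 20 kb of each gene's start (bars, bp, 1 library each) with the median of all 21911 protein-coding genes in that library (black marks). *Lefty2* exceeds the median in all 7 libraries, with 1671 bp against 471 bp in ESCs, and *Lefty1* exceeds it in all but ESCs, with 207 bp.

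By the libraries that had them, the 36 regions fell into classes that were set beside those of all merged regions. Open in every library were 4 regions (11.1%, 95% exact interval 3.11 to 26.1), against 9.74% of all merged regions. Day 0 alone had 5 (13.9%, against 23.9%), and day 0 with some doxycycline day but not ESCs had 11 (30.6%, 16.3 to 48.1, against 20.5%). Doxycycline days alone had 10 (27.8%, against 30.7%), ESCs alone had 3 (8.33%, against 9.75%), and 1 joined doxycycline days with ESCs (2.78%, against 3.14%). The 2 regions of day 0 and ESCs with a gap made up 5.56%, against 2.31%. Each interval, which covers counting error only, held the share of the whole genome, and with 36 regions the intervals are wide. The loci differed within these sums, since all 4 regions open in every library were at *Acvr2b* and *Lefty2* and all 3 of ESCs alone were at *Nodal*, *Gdf3* and *Tdgf1*. An ESC-only region within 20 kb was found for 29.0% of protein-coding genes.

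**Figure D5:**
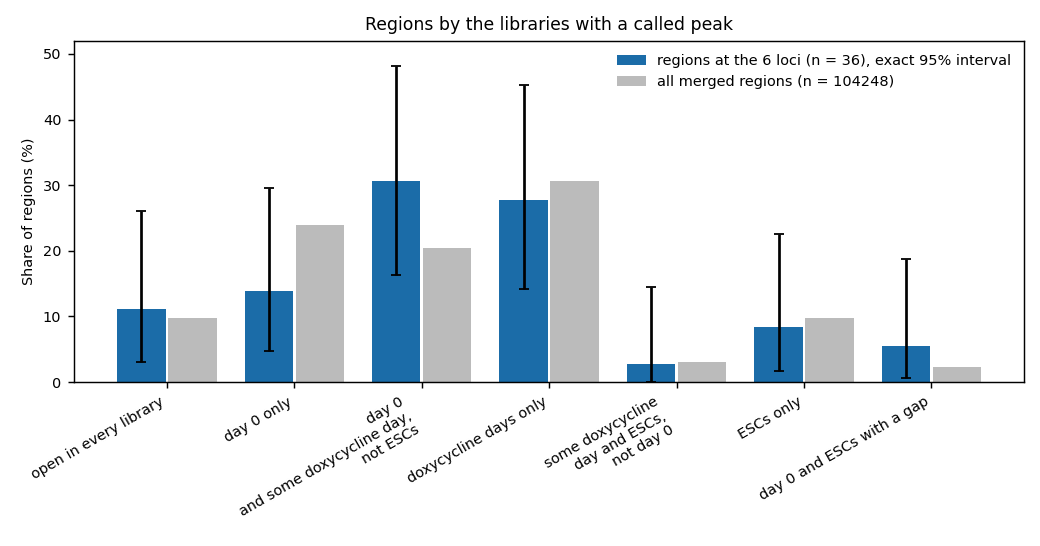
Share of regions (y axis, %) by the libraries with a called peak, for the 36 regions at the 6 loci (blue, with exact 95% intervals for counting error) and for all 104248 merged regions (grey). The grey bar lies within the blue interval in each of the classes, such as 30.6% against 20.5% for regions of day 0 and some doxycycline day without ESCs.

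Of the 36 regions, 14 were seen in 1 library, as were 50.7% of all merged regions. A day 0 peak was present in 22 and an ESC peak in 10, of which 6 had both, and for all regions the shares were 56.4% with a day 0 peak and 24.9% with an ESC peak. By position 16 lay nearer to the start of their own gene than to any other, and 20 nearer to that of another gene. Counting only peaks nearest to the member's own start left 9 on days 0, 1 and 3, 7 on day 6 and in ESCs, and 6 on days 2 and 9. The excess of day 0 over ESCs was smaller among these peaks, some of which lay far from the start. Within 10 kb of the gene bodies, which still took in starts of neighbouring genes, the loci held 18 peaks on day 0 and 8 in ESCs. The whole lists differed in the same direction, with 61241 peaks on day 0 and 27074 in ESCs. With every list cut by width to 27023 peaks, the loci had 8 on day 0 and 10 in ESCs. The excess was thus not shown to be particular to these loci.

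Sequence was searched for 10 motifs, on both strands, in the 200 bp at the centre of each region, and each match is a description of letters rather than of a bound factor. The octamer ATGCAAAT, read by POU factors such as Oct4, was found in 1 of the 36 regions, the upstream region of *Lefty1*, and in 2.28% of all merged regions. Of all regions open on the 5 doxycycline days alone 7.44% held it. The shorter composite TTNTNATGC, in which SOX and POU letters adjoin and which shares ATGC with the octamer, was found in 2 regions, the upstream region of *Lefty2* and the region in an intron of *Exog* near *Acvr2b*, and in 3.29% of all regions. These counts over the 36 regions were close to the shares of all regions, and nothing is read from them about the members.

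The KLF letters GGGNGTGG were found in 4 of the 36 regions and in 10.2% of all. One was the ESC region upstream of *Nodal*, whose printed stretch holds 2 matches, one on each strand, and the neighbouring day 9 stretch holds 1 outside the central 200 bp. The FOXH1 letters AATCCACA, those of the Smad partner of this pathway, were in no central window and in 0.784% of all, and the printed stretch upstream of *Lefty2* holds 1 match outside its central window. The Smad palindrome GTCTAGAC was in 0 regions and in 0.200% of all, and the ESRRB letters TCAAGGTCA in 0 and 0.366%. The SOX letters AACAAAG were in 4 regions and 5.75% of all, the AP-1 letters TGANTCA in 2 and 16.0%, the TEAD letters GGAATG in 7 and 15.0%, and the E-box CACGTG in 3 and 3.30%. The *Gdf3* intron region held TEAD letters alone, outside the printed stretch. Median G or C content was 50.2% in the 36 regions and 48.5% in all, and median width 546 bp against 424 bp.

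The other 34 genes of the pathway gave a wider view of its chromatin. Of these, 23, 21, 15, 22, 21 and 16 had a peak at the start on days 0, 1, 2, 3, 6 and 9, and 19 in ESCs. In the same order these were 67.6%, 61.8%, 44.1%, 64.7%, 61.8%, 47.1% and 55.9% of the list. The shares of all genes were 54.5%, 50.7%, 46.9%, 51.4%, 52.6%, 48.8% and 46.0%. The fewest were on days 2 and 9, where the share was close to that of all genes. In every library 12 had one (35.3%, against 38.5% of all genes) and in none 8 (23.5%, against 39.8%). The type I and II receptors and betaglycan were open in 3 of 4 cases on each day and 4 of 4 in ESCs, and the Smad group in 3 of 4 in every library, with *Foxh1* the exception. *Acvr1c*, a type I receptor for Nodal, and *Cfc1*, the other EGF-CFC co-receptor, were the 2 genes with a start peak in ESCs and none on day 0 (5.88%, against 2.75% of all genes). The *Cfc1* start thus had a peak in ESCs while that of *Tdgf1* had none within 1000 bp. The reverse was seen for 6 genes (17.6%, against 11.3%), among them the ligand *Gdf11*, the inhibitors *Dand5* and *Inha*, the convertase *Furin* and the target *Eomes*. In ESCs, 2 of the 34 genes had a peak within 2500 bp of the start and none within 1000 bp, against 2.88% of all genes. The limits were set with the members' distances in view, so the 4 of 6 members with this placement cannot be compared with these shares.

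Genes with the most similar series of covered bases over the 7 libraries were named by the Bray-Curtis dissimilarity, which is 0 for identical series. The nearest were *Gstm4* (0.0661) and *Dhx15* (0.0689) for *Nodal*, *Klhl42* (0.0206) and *Tbx18* (0.0391) for *Gdf3*, and *Akr1cl* (0.101) and *Fxyd5* (0.103) for *Tdgf1*. For *Acvr2b* they were *Sptan1* (0.0308) and *Pga5* (0.0309), for *Lefty1* *Ptpro* (0.0456) and *Dnmt3b* (0.0488), and for *Lefty2* *Nup205* (0.0239) and *Tirap* (0.0246). No member was among the nearest to another. Of the 6 members *Tdgf1* had the least similar nearest gene. *Dnmt3b*, a DNA methyltransferase gene, had 1914 bp on day 0 and 237 bp in ESCs beside 1967 and 207 bp for *Lefty1*.

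The labelled cell types were checked by peaks at the starts of marker genes. Of 12 fibroblast markers 8 had a start peak on day 0, 7, 6, 7, 6 and 5 on the doxycycline days and 2 in ESCs. Of 12 pluripotency markers 4 had one on day 0, 5, 2, 4, 3 and 4 on the doxycycline days and 3 in ESCs (*Zfp42*, *Klf2* and *Tdh*). *Nanog* and *Esrrb* had no start peak in any library and *Pou5f1* and *Sox2* none in ESCs. The 2 fibroblast markers with a start peak in ESCs were *Twist1* and *Snai2*, and every other library had more. Of all protein-coding genes 54.5% had a start peak on day 0 and 46.0% in ESCs. Start peaks of the pluripotency markers thus did not set the ESC library apart. Markers of endothelial, blood, epithelial, primitive endoderm and trophoblast cells, 4 for each, had start peaks at 0 to 2 genes in each library. Their part in the results at the 6 loci was not tested.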

How the data were processed

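The members, the windows, the pathway list and the marker lists were chosen with earlier results of these data known. ATAC-seq was done on 7 libraries, 1 per time-point. Per the study's methods, the authors trimmed reads to 50 bases with Trimmomatic and aligned them with Bowtie2. They ran the Fixmate command of SAMtools, removed duplicates with Picard and downsampled the libraries to the same depth. MACS2 was run on each library at a q-value of 0.05. Versions, the depth and any filter on mapping quality are not given in the sources used here. The deposited files hold the start and end of each peak (mm10), with no height, read count or p-value, so depth is unknown and no signal could be compared. The lists ran from 27074 to 61241 peaks, and how library quality bore on these numbers was not tested.

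Python 3.11.15 (numpy 2.4.6, scipy 1.17.1, matplotlib 3.10.9) intersected the peaks on the main chromosomes with GENCODE M21 genes at an overlap of at least 1 bp, joined touching or overlapping peaks into regions, and compared presence by library. A gene's start was the outer end of its annotation. The intersection was checked against BEDTools 2.31.1 (42 counts compared, 0 different) and tested on simulated libraries. Named genes were the 6 members, genes of the pathway list with a start peak in ESCs or on day 0 but not in both, and the 2 protein-coding genes nearest each member by Bray-Curtis dissimilarity of covered bases. Genes next to a region, marker genes and *Foxh1* were named outside this rule, after their values were seen. A gene of the pathway list, a neighbouring gene and a sequence are not reported here. No test was run, since no time-point has replicates. Intervals are exact binomial ones at 95% and cover counting error only. Other windows, peak widths, peak numbers, merging distances and start definitions were tried. The limits of 1000 and 2500 bp for the placement of ESC peaks, and the use of any transcript start, were chosen after seeing the data. The exact library patterns counted for the *Lefty1* and *Gdf3* regions were likewise set with those regions in view. The sequence of the cloned *Lefty1* element came from the study's list of sequences and was placed on mm10 by exact match.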

Additional observations from a re-analysis of the deposited data

How the results depend on the processing

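No paired analysis was possible because the groups compared are single libraries. No result carries a test, so the settings below change counts only, a count being called changed when it moved by over 1.5 times or a share when it left its exact interval, and the cause of no change was tested. Of 234 values under an alternative, 116 stayed and 118 changed. Peaks at the 6 loci (days 0, 1, 2, 3, 6 and 9 and ESCs in order) numbered 54, 38, 26, 42, 45, 31 and 19 within 50 kb. With 20 kb around the start, day 9 had 9. Among peaks of at least 300 bp, day 0 had 11, day 1 had 11, day 6 had 13 and ESCs had 6. Among the 27023 widest peaks, day 0 had 8, day 1 had 12 and day 6 had 13. Counting peaks nearest the member's own start gave 9, 9, 6, 9, 7 and 6 for days 0 to 9. No count changed in this sense within 10 kb or with peaks merged within 300 bp.

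Of the region classes, merging within 300 bp left 3 regions of doxycycline days with ESCs and 1 of ESCs alone. Peaks of at least 300 bp gave 23 regions in all, 2 of day 0 alone, 6 of day 0 with doxycycline days and 0 of day 0 and ESCs with a gap. Without days 2 and 9 there was 1 of the last kind. The widest peaks gave 1 of day 0 alone, 3 of day 0 with doxycycline days, 2 of doxycycline days with ESCs and 0 with a gap. Within 10 kb there were 2 of day 0 alone and 1 with a gap. Within 50 kb there were 69 regions, 8 open in every library, 14 of day 0 alone, 17 of day 0 with doxycycline days, 22 of doxycycline days and 2 of doxycycline days with ESCs. By nearest own start there were 16 regions, 2 open in every library, 1 of day 0 alone, 2 of day 0 with doxycycline days and 6 of doxycycline days.

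Members with a start peak within 500 bp numbered 1 on each of days 1, 2, 3, 6 and 9, with 52.2% of all genes on day 0 and 43.8% in ESCs. Within 2500 bp they numbered 3 on day 0, 4 on days 1, 2 and 3 and 5 in ESCs, with 58.5% and 48.9% of all genes. Peaks of at least 300 bp gave 1 on day 1, with 49.3% and 36.7% of all genes, and the widest peaks gave 1 on day 1, with 45.8% of all genes on day 0. Any transcript start gave 3 on day 0, 4 on days 1, 2 and 3 and 2 in ESCs, with 59.7% and 50.3%. The placement within 2500 bp but not 1000 bp was held by 1 member on day 0 and 2 in ESCs among peaks of at least 300 bp (2.95% and 1.88% of all genes), by 0 on day 0 among the widest (2.60%), and by 0 on day 0 for any transcript start (3.33%, and 2.37% in ESCs). Of the 36 regions, 13 had no peak of at least 300 bp and 11 none among the widest.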
